A study of Rattus norvegicus with 18 samples.

Results

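The JmjC histone demethylases examined here are 10 rat genes: Kdm2a, Kdm2b, Kdm3a, Kdm3b, Kdm4a, Kdm4b, Kdm4c, Kdm5a, Kdm5b and Kdm6b. The rule that selects them goes by gene name and uses no measured value, although the family was picked with earlier results of these data known. All 10 were found by gene name in the authors' peak list and by gene identifier among the 32883 genes counted in RNA. They carry 79 of the 215951 listed peaks, which name 16140 genes in all. The study set VitC cultures of primary rat Schwann cells, the glia that wrap peripheral axons, against control cultures, both taken at passage 3. Ribodepleted RNA, DNA precipitated with an antibody to 5-hydroxymethylcytosine (hMeDIP) and unprecipitated input DNA were each sequenced in 3 VitC and 3 control libraries, 18 libraries in all. The labels name vitamin C as the only difference between the groups and give no dose, duration, strain, sex or age. Whether the 3 libraries of a group represent different cultures or animals is not said, so p-values reflect the spread between these libraries alone, and that spread may be technical.

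JmjC enzymes remove methyl groups from histone lysines in a reaction that uses molecular oxygen, 2-oxoglutarate and ferrous iron. Ascorbate (vitamin C) is a known cofactor of this enzyme class in biochemical assays, where it helps to keep the iron in its reduced form. The TET enzymes, which make 5-hydroxymethylcytosine from methylated cytosine in DNA, belong to the same class of oxygenases. The question here is the level of the demethylase genes themselves: how their RNA, and the 5-hydroxymethylcytosine along them, differed between VitC and control cells.

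The RNA libraries had 23381814 to 33173282 reads in genes, the hMeDIP libraries 24020306 to 39899445 reads in peaks and the input libraries 7201638 to 9521037. VitC RNA replicate 1 stood apart from its group: its counts differed from those of VitC replicates 2 and 3 with a chi-square of 27.4 and 38.3 per degree of freedom, against 5.26 between replicates 2 and 3 and 5.03 to 8.61 among the controls. Reads aligned at several places made up 44.9% of its counted reads, against 32.7% and 34.4% in the other VitC libraries and 36.5% to 42.5% in the controls, and the part of this in the RNA values below was not tested. In both groups, peak counts of hMeDIP replicates 1 and 3 agreed within sampling noise. Their chi-square per degree of freedom was 0.896 in VitC and 0.963 in control. Sampling noise alone would give about 1, and why the values were lower was not tested. These pairs were counted as 1 sample each, so the hMeDIP tests compare 2 VitC with 2 control samples. All pairs of input libraries of a group also agreed within noise (0.978 to 0.988), so these libraries may not be separate samples either. Of 6 Schwann cell markers, all were counted in every library, with summed levels of 7290 to 7720 CPM (read counts scaled to the library's reads in genes and by TMM factors, edgeR's correction for library composition) in VitC and 7430 to 7730 CPM in control. One of them, Cdh19, was called higher in VitC (log2 change of VitC over control 0.67). The 3 called lower were S100b (-0.99), Erbb3 (-0.16) and Gap43 (-0.18), and Sox10 and Ngfr were not called. S100b averaged 592 CPM in VitC and 1170 CPM in control, so the near-equal sums do not mean unchanged markers. Summed levels of 7 pericyte and smooth muscle markers were 191 to 216 CPM in VitC and 73.3 to 76.6 CPM in control, with 3 of 3 tested called higher and Rgs5, Cnn1, Acta2 and Notch3 near 0. Fibroblast markers summed to 9190 to 10800 CPM in VitC and 4400 to 4550 CPM in control, nearly all from Col1a1, the 1 marker called higher of 3 tested. Pdgfra (-1.38) and Pi16 (-0.78) were called lower, and Dcn was at 0 in every library. Skeletal muscle markers summed to 87.3 to 104 CPM in VitC and 21.9 to 31.3 CPM in control, with 3 of 3 tested called higher. Neuronal markers summed to 36.6 to 50.5 CPM in VitC and 22.7 to 25.3 CPM in control, nearly all from Tubb3. Endothelial markers summed to 2.99 to 4.26 CPM in VitC and 1.38 to 1.81 CPM in control, with Cdh5 at 0 in every library, and macrophage markers to 1.4 to 1.76 CPM in VitC and 1.22 to 1.44 CPM in control. The part of these marker differences in the results on the demethylases was not tested, and in bulk RNA fewer cells of a type and less RNA per cell cannot be told apart.

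RNA of the 10 demethylases differed little between VitC and control cells. One member, Kdm2b, was called lower in VitC, 9 were not called and 0 were called higher. Over all 12925 genes tested, 40.1% were called, 19.1% higher and 21.0% lower in VitC. The log2 changes of the members (VitC over control, as for every change below, so that 1 is a doubling) spanned -0.21 to 0.29 with SEs of 0.05 to 0.21. Their median was 0.015, beside -0.00997 over all genes tested. All 10 members passed the filter on low counts, with 489 to 7229 reads per library. The VitC and control libraries did not overlap in 3 members (Kdm2b, Kdm3b and Kdm5b), and in 54.4% of all genes tested. Calls come from edgeR's quasi-likelihood test with Benjamini-Hochberg adjustment over all genes, at an adjusted p of 0.05.

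**Figure D1:**
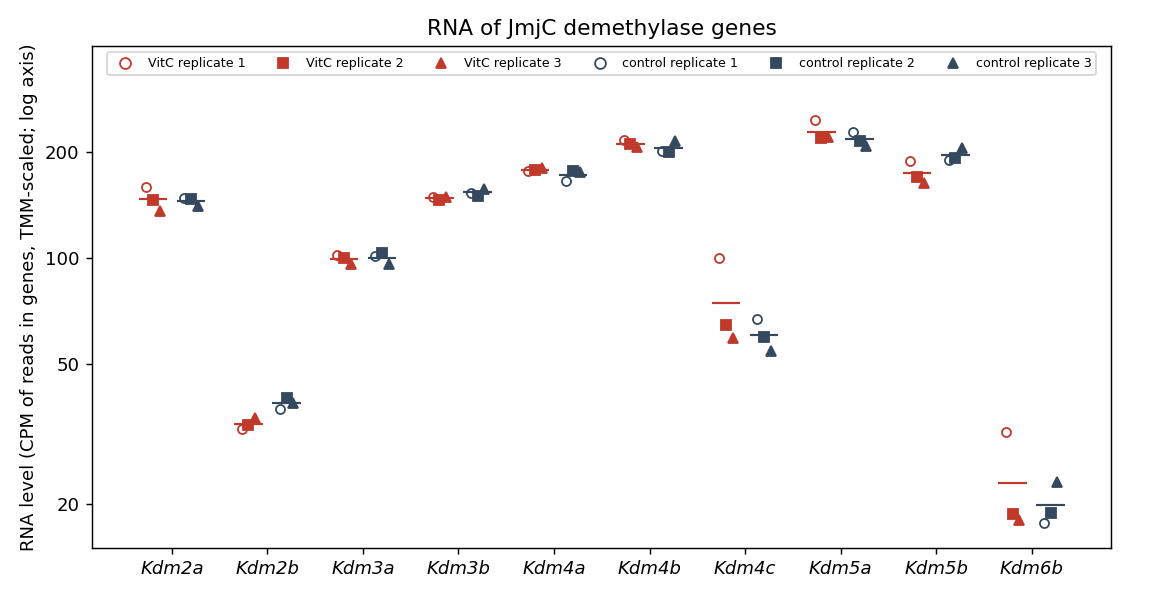
RNA level of each of the 10 genes in each library, as CPM of reads in genes scaled by TMM factors, on a log axis. VitC libraries are red and stand left of the control libraries in dark blue, symbols mark the replicate and bars the group mean. The Kdm2b and Kdm5b points of VitC lie below those of control, and VitC replicate 1 lies far above the other libraries for Kdm4c and Kdm6b. CPM is not scaled by gene length, so levels are not to be compared between genes.

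Kdm2a and Kdm2b remove methyl groups from histone H3 lysine 36 (H3K36) and bind unmethylated CpG DNA through a zinc finger. Kdm2b also brings a variant of Polycomb repressive complex 1, known as PRC1.1, to CpG islands. Kdm2b RNA stood at 32.6, 33.4 and 35.0 CPM in VitC and at 37.2, 39.9 and 38.7 CPM in control. All 3 VitC libraries were below all 3 controls, and the change was -0.21 ± 0.06 (SE; n = 3 each; edgeR adjusted p = 0.024). The call was lost without VitC replicate 2 (edgeR adjusted p = 0.0796), without control replicate 2 (0.101) or control replicate 3 (0.0635), without the filter on low counts (0.0601), when scaled by all counted reads (0.356) and with DESeq2 (0.0747). The size of the change varied little under these settings, while its adjusted p ranged between 0.0132 and 0.356 over all alternatives. Kdm2a had 159, 146 and 136 CPM in VitC and 148, 147 and 140 CPM in control. Its VitC libraries lay on both sides of the controls, with a change of 0.01 ± 0.07 and a 95% interval of -0.15 to 0.16.

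Kdm3a and Kdm3b remove mono- and dimethylation from H3K9, a mark of silenced chromatin. Kdm3a is a known target of the hypoxia-inducible factor HIF. Kdm3a had 102, 99.7 and 96.1 CPM in VitC and 101, 103 and 95.8 CPM in control, so the groups lay on top of each other (-0.03 ± 0.06, 95% interval -0.15 to 0.10). Kdm3b had 149, 146 and 149 CPM in VitC and 153, 150 and 157 CPM in control. Its VitC libraries were all just below the controls, but the change of -0.06 ± 0.05 did not pass the test (edgeR adjusted p = 0.35).

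The Kdm4 enzymes act on trimethylated H3K9 and H3K36. Kdm4a had 176, 178 and 180 CPM in VitC and 165, 176 and 175 CPM in control (0.04 ± 0.05). Kdm4b, which like Kdm3a is induced in hypoxia, had 216, 210 and 206 CPM in VitC and 201, 200 and 215 CPM in control (0.02 ± 0.05). The groups overlapped in both genes, and the 95% intervals of the change, -0.08 to 0.15 and -0.10 to 0.15, both include 0. Kdm4c was uneven across libraries, with 100 CPM in VitC replicate 1, 64.4 and 59.3 CPM in the other VitC libraries, and 66.9, 59.5 and 54.4 CPM in control. One library sets its difference: the change was 0.29 ± 0.18 over all libraries and 0.03 ± 0.08 without VitC replicate 1, and neither passed the test (edgeR adjusted p = 0.223 and 0.792).

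Kdm5a and Kdm5b erase di- and trimethylation of H3K4, the mark of active promoters. Kdm5a had 246, 219 and 220 CPM in VitC and 228, 215 and 208 CPM in control, overlapping groups with a change of 0.06 ± 0.07. Kdm5b had 188, 170 and 163 CPM in VitC and 190, 192 and 205 CPM in control. All 3 VitC libraries were below the controls, with VitC replicate 1 close to control replicate 1. The change of -0.18 ± 0.07 missed the threshold (edgeR adjusted p = 0.0546), while without VitC replicate 1 it was -0.24 ± 0.05 (adjusted p = 0.00291; range over all alternatives 0.00291 to 0.326).

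Kdm6b (also named JMJD3) removes methylation from H3K27, the Polycomb mark, and in Schwann cells is known to be induced after nerve injury. Kdm6b had 31.9 CPM in VitC replicate 1, 18.7 and 18.0 CPM in the other VitC libraries, and 17.6, 18.8 and 23.1 CPM in control. VitC replicate 1 was the highest library and the other VitC libraries lay within the control range. The change was 0.19 ± 0.21 over all libraries and -0.11 ± 0.10 without VitC replicate 1, so its sign rests on that library (edgeR adjusted p = 0.496 and 0.42).

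Of 14 other JmjC proteins with a symbol in the peak list, 1 was called higher and 1 lower, beside the 19.1% and 21.0% of all genes given above. Hr (hairless, a JmjC protein that acts as a nuclear receptor corepressor) had 61.4, 69.7 and 64.7 CPM in VitC and 36.1, 37.9 and 37.6 CPM in control, a rise of 0.80 ± 0.07 (edgeR adjusted p = 3.85e-05). Riox2, a JmjC hydroxylase that acts on a ribosomal protein, had 7.93, 6.90 and 7.27 CPM in VitC and 10.7, 9.94 and 10.4 CPM in control, a fall (-0.50 ± 0.09, adjusted p = 0.003). For both, every VitC library lay outside the control range. Jarid2, a JmjC protein without demethylase activity that works with Polycomb repressive complex 2, had 96.8 CPM in VitC replicate 1, 63.9 and 59.9 CPM in the other VitC libraries, and 74.4, 74.9 and 78.2 CPM in control. It was not called (-0.06 ± 0.16), but was -0.30 without VitC replicate 1 (edgeR adjusted p = 0.00105). Jarid2 falls outside the rule for naming genes and was chosen after its values were seen. The flavin-dependent demethylases Kdm1a and Kdm1b, which need no 2-oxoglutarate, were not called (0 of 2).

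Among the enzymes that write the marks the members erase, calls went both ways, and their counts are to be read beside the 40.1% called over all genes. Of 6 H3K4 methyltransferases 1 was called, Setd1b, at 23.6, 17.7 and 14.8 CPM in VitC and 13.5, 11.1 and 11.9 CPM in control (0.60 ± 0.16, edgeR adjusted p = 0.0184). Of 3 H3K9 methyltransferases with a symbol 2 fell, Ehmt2 (also named G9a) and Setdb1. Ehmt2 had 122, 132 and 140 CPM in VitC and 164, 170 and 187 CPM in control (-0.42 ± 0.07, edgeR adjusted p = 0.00254). Setdb1 changed by -0.23 ± 0.06 (edgeR adjusted p = 0.014, 0.0504 without control replicate 3 and 0.288 when scaled by all counted reads). Of 4 genes of the H3K27 methyltransferase complex only Ezh1 was called (0.20 ± 0.06, edgeR adjusted p = 0.026), and of 5 H3K36 methyltransferases only Nsd3 (0.37 ± 0.13, adjusted p = 0.0471). Setd1b lost the call without control replicate 2 or 3 (edgeR adjusted p = 0.0776 and 0.0710). Ezh1 lost it without VitC replicate 2 or 3 or control replicate 2 or 3 (0.0581 to 0.117), and Nsd3 without VitC replicate 2 or any single control library (0.0531 to 0.146). Both also lost it with library sizes alone (0.122 for Ezh1, 0.0537 for Nsd3) and when scaled by all counted reads (0.403 and 0.0752). Without VitC replicate 1, Setd1b (0.41 ± 0.11) and Nsd3 (0.20 ± 0.06) had smaller changes that were still called. Of 7 PRC1.1 partners of Kdm2b, 2 rose and 1 fell. Bcor, the scaffold of the complex, had 144, 144 and 137 CPM in VitC and 103, 109 and 112 CPM in control (0.38 ± 0.06, edgeR adjusted p = 0.000911), with no overlap between groups. Its call was lost when scaled by all counted reads (0.36, edgeR adjusted p = 0.0673). Its paralogue Bcorl1 changed by 0.50 ± 0.15 (edgeR adjusted p = 0.0315, and 0.0873 to 0.0977 without any single control library). Without VitC replicate 1 the change of Bcorl1 was smaller, at 0.29 ± 0.09, and still called. Skp1, an adaptor that also serves ubiquitin ligases, had 477, 534 and 551 CPM in VitC and 694, 749 and 695 CPM in control (-0.46 ± 0.07, adjusted p = 0.00103).

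5-hydroxymethylcytosine along the members was read from the 79 peaks, of which 69 are annotated as gene body, 3 as promoter within 1000 bases of the start and 7 as promoter within 3000. Peak widths ran from 349 to 2076 bases with a median of 667. Kdm5b carried 17 peaks, Kdm4a 12, Kdm2b and Kdm4b 11 each, Kdm2a and Kdm3b 8 each, Kdm3a 4, Kdm4c and Kdm6b 3 each and Kdm5a 2. Per 10 kb of the listed transcript span, peaks were densest in the short Kdm6b (4.23 per 10 kb), Kdm4a (2.57) and Kdm5b (2.40), and sparsest in Kdm5a (0.251) and the long Kdm4c (0.141). The median over 13692 protein-coding genes with a peak was 1.65. Kdm6b was the only member whose listed start lies inside a peak, while the nearest peak of Kdm2b lay 7786 bases and that of Kdm5a 44083 bases into the gene, measured from the peak's centre. Positions are those of the authors' peak list, for which the sources used here name no genome build.

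The start regions are shown for 4 members that differ in this respect: Kdm6b with its start in a peak, Kdm3a with the next closest peak, Kdm5b with peaks on both sides, and Kdm2b with none near. Each run is the RefSeq promoter of the GRCr8 build, 250 bases before to 50 bases after the start, 5′ to 3′ on the gene's strand, with CpG pairs, the sites at which rat DNA is mostly methylated and hydroxymethylated, in capitals. GRCr8 positions are not those of the peak list, and no peak was placed on these bases.
Kdm6b (chr10:54640965-54641264, minus strand): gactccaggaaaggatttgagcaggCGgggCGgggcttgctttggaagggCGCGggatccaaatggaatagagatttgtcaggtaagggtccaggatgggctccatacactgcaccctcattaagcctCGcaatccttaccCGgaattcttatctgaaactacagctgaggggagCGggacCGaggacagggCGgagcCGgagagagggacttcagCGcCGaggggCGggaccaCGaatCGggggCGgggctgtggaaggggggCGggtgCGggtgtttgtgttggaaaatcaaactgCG
Kdm3a (chr4:105233321-105233620, minus strand, the outer of its 2 RefSeq starts): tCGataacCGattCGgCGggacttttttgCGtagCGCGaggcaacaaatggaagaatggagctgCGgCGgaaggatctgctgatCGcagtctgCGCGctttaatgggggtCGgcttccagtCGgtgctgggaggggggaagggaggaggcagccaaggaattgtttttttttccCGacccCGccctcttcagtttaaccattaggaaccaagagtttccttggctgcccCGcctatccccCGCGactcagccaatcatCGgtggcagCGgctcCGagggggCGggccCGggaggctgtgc
Kdm5b (chr13:48554147-48554446, plus strand): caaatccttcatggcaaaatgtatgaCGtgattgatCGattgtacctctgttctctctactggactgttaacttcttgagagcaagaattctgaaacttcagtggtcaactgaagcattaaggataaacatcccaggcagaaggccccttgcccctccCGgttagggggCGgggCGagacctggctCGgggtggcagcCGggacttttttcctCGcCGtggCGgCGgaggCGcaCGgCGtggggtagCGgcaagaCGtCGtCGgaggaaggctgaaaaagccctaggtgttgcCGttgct
Kdm2b (chr12:39235228-39235527, plus strand): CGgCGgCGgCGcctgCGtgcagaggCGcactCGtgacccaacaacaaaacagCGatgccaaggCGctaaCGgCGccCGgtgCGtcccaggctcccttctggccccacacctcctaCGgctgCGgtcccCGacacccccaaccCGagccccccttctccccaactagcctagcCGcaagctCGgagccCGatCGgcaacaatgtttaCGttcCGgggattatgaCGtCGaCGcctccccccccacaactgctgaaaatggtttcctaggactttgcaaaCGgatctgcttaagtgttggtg
These windows hold 19, 24, 19 and 27 CpG pairs. The 11 RefSeq windows of the 10 members hold 14 to 38, against a median of 7 and quartiles of 3 and 19 over all 33469 rat promoters in the table. The core hypoxia-response letters ACGTG, searched on both strands, occur in the windows of Kdm4b, Kdm4c and Kdm5b and in 19.3% of all windows. The E-box CACGTG, which contains ACGTG, occurs in those of Kdm4b and Kdm4c and in 6.42% of all windows. A match describes the letters only.

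Most of the member peaks differed in hMeDIP level between VitC and control cells, in both directions. Of 79 peaks 40 were called higher in VitC (50.6%), 16 lower (20.3%) and 23 were not called, with a median change of 0.26. Over all 215951 peaks 73.2% were called, 36.9% higher and 36.3% lower, with a median of 0.052. With DESeq2 fewer were called, 22 member peaks higher and 14 lower, against 20.2% and 31.8% of all peaks. By annotation, 33 gene body peaks of the members were higher and 14 lower (of 69), against 44.5% and 28.4% of all gene body peaks. Of the 3 peaks within 1000 bases of a start 2 were higher and 1 lower, against 42.5% and 31.9%, and of the 7 within 3000 bases 5 were higher and 1 lower, against 42.3% and 30.3%. The direction followed the peak's place in the deposited list, which runs through the chromosomes in 2 passes without saying why. In the first pass (peaks 1 to 68432) 2.89% of all peaks were called higher and 87.1% lower. In the second pass 52.6% were called higher and 12.8% lower. Of the 16 member peaks of the first pass 1 was higher and 11 lower (6.25% and 68.8%), and of the 63 of the second pass 39 were higher and 5 lower (61.9% and 7.94%). The sources used here do not say how the authors called and joined the passes, so a change at a peak and the pass it was called in cannot be told apart. The pass of each peak described is therefore given.

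The scaling also bears on direction. The share of all counted hMeDIP reads that fell in peaks was 42.0% ± 1.63 in VitC and 32.8% ± 2.61 in control (SD, n = 3 each). A two-sided exact permutation test gave p = 0.1, and 3 against 3 cannot give less. This test took each library as a sample, although replicates 1 and 3 of a group count as 1 in the hMeDIP fits. Its p therefore rests on more samples than those fits allow. The input shares were 8.53% ± 0.0889 in VitC and 8.57% ± 0.0808 in control (exact permutation p = 0.7). The input test also took each library as a sample. TMM factors centre the peaks and remove such a shared shift. Scaled by all counted reads, the median over all peaks moved up by 0.434, 60.1% of all peaks were called higher and 23.6% lower, and of the member peaks 58 were higher and 6 lower. Levels below are CPM of the reads in peaks, scaled by TMM factors, with replicates 1 and 3 of a group counted together in each test. With libraries taken singly, the hMeDIP levels of the groups did not overlap at 57 of the 79 member peaks. Summed by gene, they did not overlap in 6 of the 10 members. The share over all peaks or genes was not computed, so separation of libraries is given below as a description only.

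**Figure D2:**
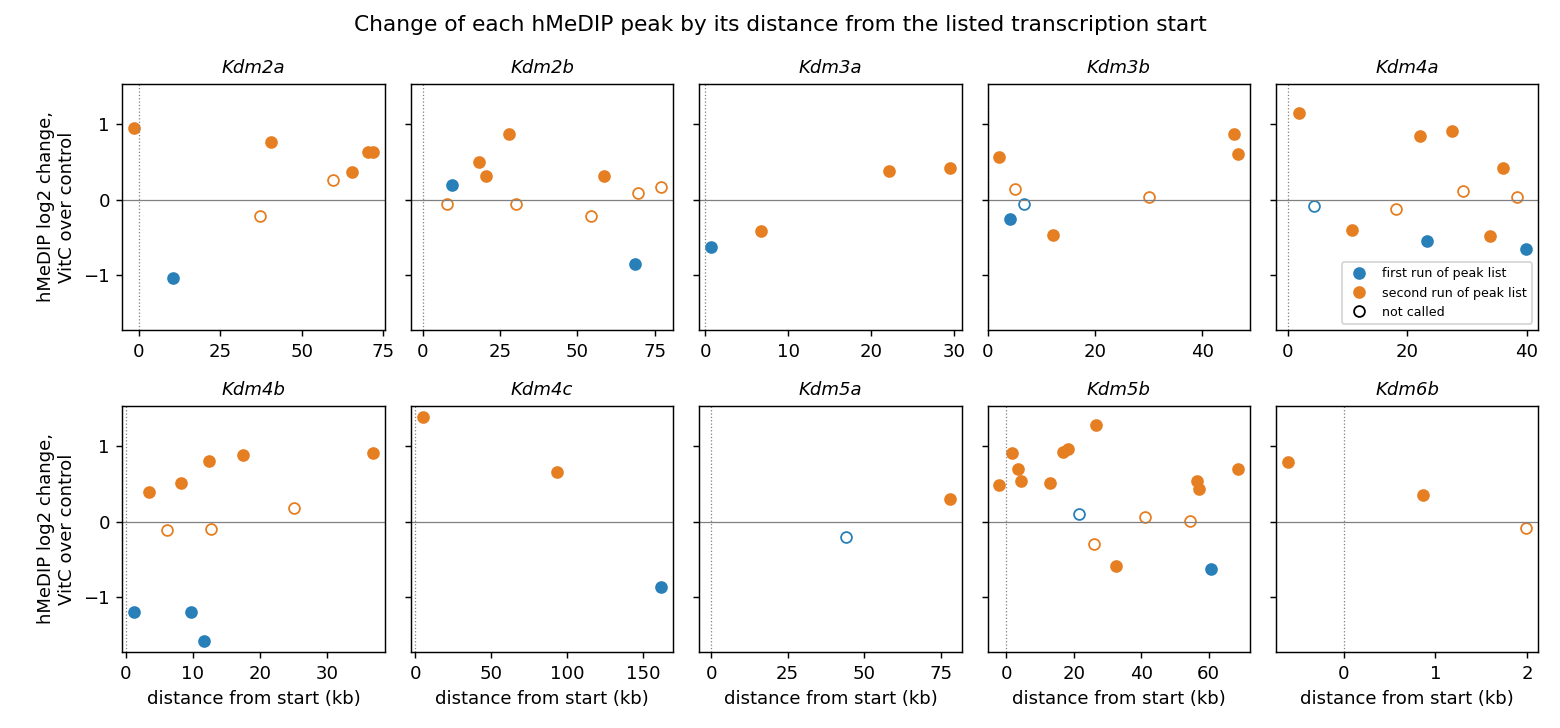
Log2 change of hMeDIP reads (VitC over control, TMM-scaled) at each of the 79 peaks against the distance of the peak's centre from the listed transcription start, in kilobases, 1 panel per gene. Distances are from the transcript listed for each peak, and Kdm4b, Kdm4c, Kdm5a and Kdm5b have 2 such transcripts each. Blue peaks come from the first pass of the peak list and orange peaks from the second, and open circles were not called. Called first-pass peaks lie below 0 with 1 exception in Kdm2b, and second-pass peaks lie mostly above 0.

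Around the Kdm6b start, where all 3 peaks come from the second pass, hMeDIP reads were higher in VitC at 2 of them. Over all peaks of that pass 52.6% were called higher. The peak that covers the start (chromosome 10, 56008840 to 56010147, minus strand, second pass, promoter) had 5.76, 7.01 and 6.26 CPM in VitC and 4.25, 3.64 and 3.42 CPM in control. Every VitC library exceeded every control, with a change of 0.79 ± 0.11 (edgeR adjusted p = 1.46e-08). Input at the same peak was level, with 6.36, 6.50 and 5.98 CPM in VitC and 6.55, 5.99 and 6.51 CPM in control, and the change of hMeDIP over input was 0.79 ± 0.19 (edgeR adjusted p = 0.000265). The peak 870 bases into the gene had 4.59, 6.19 and 5.40 CPM in VitC and 4.02, 4.24 and 4.56 CPM in control, a smaller rise (0.36 ± 0.11, edgeR adjusted p = 0.00312) that was lost without VitC replicate 2 (adjusted p = 0.115) and with DESeq2 (0.0967). The one at 1995 bases had 2.95, 3.03 and 2.73 CPM in VitC and 3.46, 2.60 and 3.24 CPM in control and was not called (-0.08 ± 0.14). The rise thus became smaller from the peak over the start to the peak farthest into the gene, as a description of 3 peaks.

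Kdm5b, the member with the most peaks, had 11 higher, 2 lower and 4 not called. On the H3K4 demethylase gene 11 of 15 second-pass peaks were higher. Over all second-pass peaks, 57.2% of those in gene bodies and 56.1% of promoter peaks within 3000 bases were called higher. The peak 18279 bases into the gene (chromosome 13, 51402085 to 51403597, second pass) had 6.68, 6.89 and 7.69 CPM in VitC and 3.87, 3.20 and 3.82 CPM in control (0.97 ± 0.10, edgeR adjusted p = 5.83e-11). The promoter peaks on either side of the 2 listed starts (51384389 and 51384562), both of the second pass, were higher. The upstream peak is centred at -1957 bases from the outer start, the downstream peak at 1885 bases from the inner start. The upstream one had 5.06, 5.35 and 5.01 CPM in VitC and 3.38, 3.68 and 4.01 CPM in control (0.49 ± 0.11, edgeR adjusted p = 0.00013). The downstream one had 2.98, 3.41 and 3.07 CPM in VitC and 1.65, 1.78 and 1.68 CPM in control (0.91 ± 0.15, edgeR adjusted p = 8.37e-07). At each of these peaks all VitC libraries lay above all controls, and hMeDIP over input rose too. The other H3K4 demethylase, Kdm5a, had 2 peaks, both deep in the gene. The one at 78018 bases (second pass) had 3.45, 3.16 and 3.36 CPM in VitC and 2.48, 3.20 and 2.48 CPM in control. Its groups overlapped, and a call at the edge of the threshold (0.30 ± 0.14, edgeR adjusted p = 0.042) was lost without any single VitC library, control replicate 1 or control replicate 3 (0.0674 to 0.109), with DESeq2 size factors (0.0823) and with DESeq2 (0.438).

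In the Kdm2 genes, the peak 1402 bases before the Kdm2a start (chromosome 1, 219641046 to 219642346, second pass) had 5.56, 5.82 and 6.52 CPM in VitC and 3.27, 3.81 and 2.42 CPM in control. The groups were well apart (0.95 ± 0.12, edgeR adjusted p = 1.19e-09). Input had 5.95, 4.15 and 6.44 CPM in VitC and 7.71, 6.13 and 6.30 CPM in control. These input groups overlapped, and their change of -0.30 ± 0.16 was not called. Kdm2a had 5 higher and 1 lower of 8 peaks, the lower one being its single first-pass peak. Kdm2b had 5 higher and 1 lower of 11. Its strongest call was a first-pass peak 68544 bases into the gene (chromosome 12, 39146372 to 39146955), with 1.42, 1.94 and 1.46 CPM in VitC and 2.82, 3.07 and 2.97 CPM in control (-0.85 ± 0.16, edgeR adjusted p = 6.53e-06). Second-pass peaks of Kdm2b were called higher in 4 of 9 cases and lower in 0, and of its 2 first-pass peaks 1 was higher and 1 lower. The counts of both genes stand beside 52.6% higher and 12.8% lower over all second-pass peaks. Over all first-pass peaks these shares were 2.89% and 87.1%.

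Among the Kdm4 genes, Kdm4b had its 3 first-pass peaks all lower and 5 of its 8 second-pass peaks higher, beside 87.1% lower and 52.6% higher over all peaks of those passes. The first-pass peak 11769 bases from the start (chromosome 9, 10698635 to 10699124) had 1.50, 1.47 and 1.22 CPM in VitC and 3.72, 4.37 and 4.43 CPM in control, the most negative change of any member peak (-1.58 ± 0.14, edgeR adjusted p = 6.99e-13). The first-pass promoter peak at 1325 bases had 2.95, 2.21 and 2.90 CPM in VitC and 6.39, 6.84 and 5.23 CPM in control (-1.19 ± 0.12, edgeR adjusted p = 1.44e-11). Both stayed lower when scaled by all counted reads, at -1.15 and -0.78. Their distances are from the listed start at 10710648, while a second listed Kdm4b transcript starts farther out, at 10734073. The most positive change was at Kdm4c, in a second-pass peak 5072 bases into the gene (chromosome 5, 90805029 to 90805448). It had 2.09, 2.09 and 2.19 CPM in VitC and 1.02, 0.823 and 0.642 CPM in control (1.39 ± 0.20, edgeR adjusted p = 2.99e-08), with the groups clearly apart but on few reads. Kdm4a split evenly, with 4 peaks higher, 4 lower and 4 not called, beside 36.9% higher and 36.3% lower over all peaks. Its promoter peak at 1826 bases (chromosome 5, 137012254 to 137012844, second pass) had 2.42, 2.89 and 2.78 CPM in VitC and 1.05, 1.08 and 1.50 CPM in control (1.15 ± 0.17, edgeR adjusted p = 9.03e-08). Its strongest call lay at 22128 bases (second pass), with 6.68, 6.97 and 7.50 CPM in VitC and 3.57, 4.07 and 4.25 CPM in control (0.84 ± 0.10, edgeR adjusted p = 7.29e-10).

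In the Kdm3 genes the calls were mixed. The Kdm3a promoter peak, centred 680 bases into the gene (chromosome 4, 99545553 to 99546064, first pass), had 3.06, 3.08 and 2.60 CPM in VitC and 4.44, 4.72 and 4.46 CPM in control. The groups did not overlap (-0.62 ± 0.12, edgeR adjusted p = 1.14e-05), but the change over input was -0.31 ± 0.24 (adjusted p = 0.28), and scaled by all counted reads the peak was not called (-0.19, adjusted p = 0.196). Kdm3b had 3 higher, 2 lower and 3 not called, beside 36.9% higher and 36.3% lower over all peaks. Its promoter peak at 2177 bases (second pass) had 1.56, 1.89 and 2.34 CPM in VitC and 1.13, 1.69 and 1.19 CPM in control, overlapping groups with a change of 0.56 ± 0.18 (edgeR adjusted p = 0.00575, 0.0731 without VitC replicate 3 and 0.208 with DESeq2). The peak at 12118 bases (chromosome 18, 27587644 to 27588851, second pass) had 7.62, 7.69 and 7.50 CPM in VitC and 11.0, 10.7 and 10.4 CPM in control, a fall against the run of its pass (-0.47 ± 0.08, edgeR adjusted p = 5.16e-07) that was -0.03 when scaled by all counted reads (adjusted p = 0.841).

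Input DNA gave no call at these peaks, on 11 to 109 reads per library, so small changes of input could be missed. None of the 79 member peaks was called in input, as in 0.0% of 215759 peaks tested with edgeR, and DESeq2 also called 0 member peaks. At an unadjusted p under 0.05 there was 1 member peak, in Kdm2b (unadjusted p = 0.00464), against 4.86% of all peaks. At that peak, 30204 bases into Kdm2b (second pass), input changed by 0.55 and hMeDIP over input by -0.61 (edgeR adjusted p = 0.0222). Relative to the input of the same samples, 19 member peaks were higher in VitC and 13 lower, against 20.8% and 28.3% of all peaks (edgeR quasi-likelihood test of assay by treatment). The pass again separated them. In the first pass 0 of 16 were higher and 8 lower, against 1.19% and 75.5% of all peaks, and in the second 19 of 63 were higher and 5 lower, against 29.9% and 6.36%. The enrichment of hMeDIP over input (ratio of the shares of all counted reads) was averaged within each group. Its median over the member peaks was 4.82 in VitC and 3.14 in control. Over first-pass member peaks the median was 4.61 in VitC and 5.04 in control, and over second-pass ones 5.11 and 2.84. Single libraries spanned 1.56 to 11.7 in VitC and 0.694 to 9.75 in control. The ratio is not TMM-scaled, so it takes in the higher share of hMeDIP reads in peaks in VitC. No median over all peaks is given.

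Summed over all peaks of a gene, 5 members had higher hMeDIP counts in VitC, 1 lower and 4 were not called, with 37.4% of all 16140 genes higher and 37.5% lower. A sum takes in peaks of either pass, so its change cannot be told apart from the gene's mix of passes. Second-pass peaks were 3 of 3 in Kdm6b, 7 of 8 in Kdm2a, 15 of 17 in Kdm5b and 9 of 11 in Kdm2b. They were 2 of 3 in Kdm4c, 3 of 4 in Kdm3a, 6 of 8 in Kdm3b and 9 of 12 in Kdm4a. In Kdm4b they were 8 of 11 and in Kdm5a 1 of 2. Kdm6b had 25.2, 30.5 and 27.5 CPM in VitC and 21.6, 19.1 and 20.9 CPM in control (0.45 ± 0.07, edgeR adjusted p = 1.19e-06). Kdm2a had 43.6, 43.9 and 43.5 CPM in VitC and 34.0, 35.4 and 32.4 CPM in control (0.36 ± 0.06, edgeR adjusted p = 4.64e-07). Kdm5b had 124, 130 and 130 CPM in VitC and 103, 102 and 106 CPM in control (0.30 ± 0.04, edgeR adjusted p = 1.76e-09). In these genes, and in Kdm2b at 103, 103 and 101 CPM in VitC and 90.0, 92.3 and 90.3 CPM in control (0.16 ± 0.04, edgeR adjusted p = 0.000331), every VitC library lay above every control. Kdm4c had 10.7, 10.2 and 12.7 CPM in VitC and 9.89, 9.61 and 8.48 CPM in control. Its rise of 0.26 ± 0.11 (edgeR adjusted p = 0.0314) was lost without VitC replicate 3 (0.203) or control replicate 3 (0.126), with library sizes alone (0.106) and with DESeq2 (0.268), and its adjusted p ranged between 4.91e-07 and 0.268 over all alternatives. Kdm3a had 21.4, 21.6 and 20.5 CPM in VitC and 23.6, 23.3 and 24.8 CPM in control. It was lower by TMM scaling (-0.18 ± 0.07, edgeR adjusted p = 0.0196) but higher with all counted reads as the scale (0.24, adjusted p = 0.0378), and its call was lost without VitC replicate 2, VitC replicate 3 or control replicate 3 (adjusted p = 0.0573, 0.0535 and 0.0517) and with DESeq2 (0.163; range over all alternatives 0.00242 to 0.163). Kdm3b, Kdm4a, Kdm4b and Kdm5a were not called, with 95% intervals within -0.17 and 0.25. Under scaling by all counted reads, 65.3% of all genes were called higher, and all 10 members were among them.

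**Figure D3:**
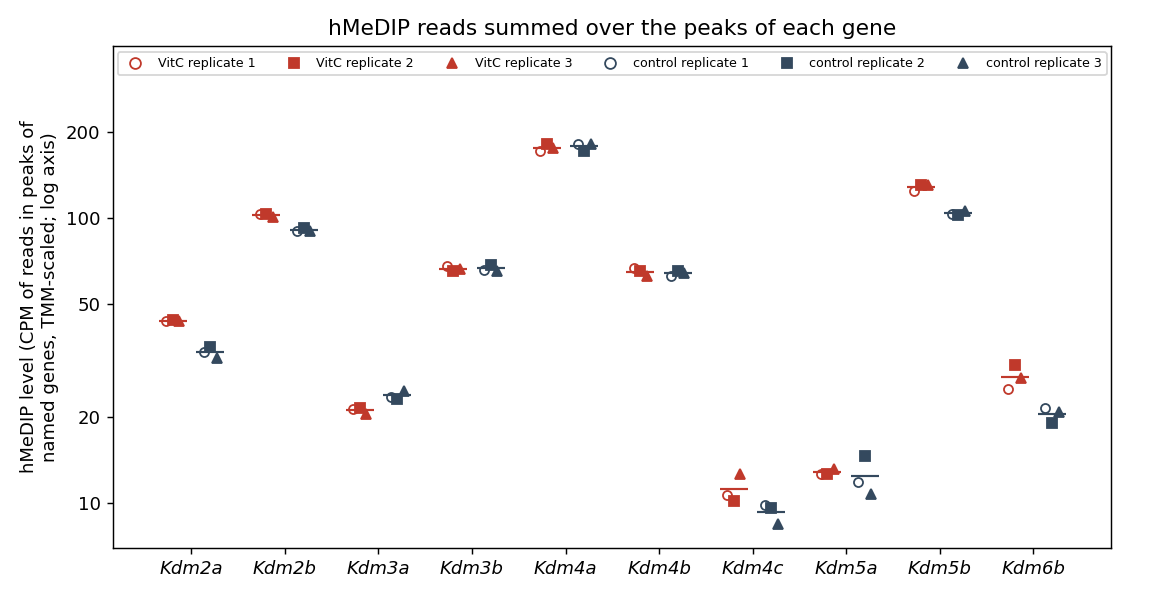
hMeDIP reads summed over all peaks of each gene in each library, as CPM of reads in peaks of named genes scaled by TMM factors, on a log axis. VitC libraries are red and stand left of the control libraries in dark blue, symbols mark the replicate and bars the group mean. VitC lies above control in Kdm2a, Kdm2b, Kdm4c, Kdm5b and Kdm6b and below it in Kdm3a.

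Set side by side, the RNA change and the summed hMeDIP change had the same sign in some members and opposite signs in others. Kdm2b, the 1 member whose RNA fell, carried more hMeDIP reads in VitC (0.16 ± 0.04), and Kdm5b had a hMeDIP change of 0.30 ± 0.04 beside an RNA change of -0.18 ± 0.07. Kdm2a had a hMeDIP change of 0.36 ± 0.06 beside an RNA change of 0.01 ± 0.07. Kdm6b had 0.45 ± 0.07 in hMeDIP beside 0.19 ± 0.21 in RNA, and that RNA value rests on VitC replicate 1. Kdm4c had 0.26 ± 0.11 in hMeDIP beside 0.29 ± 0.18 in RNA, which likewise rests on VitC replicate 1, and Kdm3a had -0.18 ± 0.07 in hMeDIP beside -0.03 ± 0.06 in RNA. Kdm3b, Kdm4a, Kdm4b and Kdm5a were called in neither. The 10 points are a description, and no relation was tested across them. The hMeDIP sums again cannot be told apart from the pass of their peaks.

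**Figure D4:**
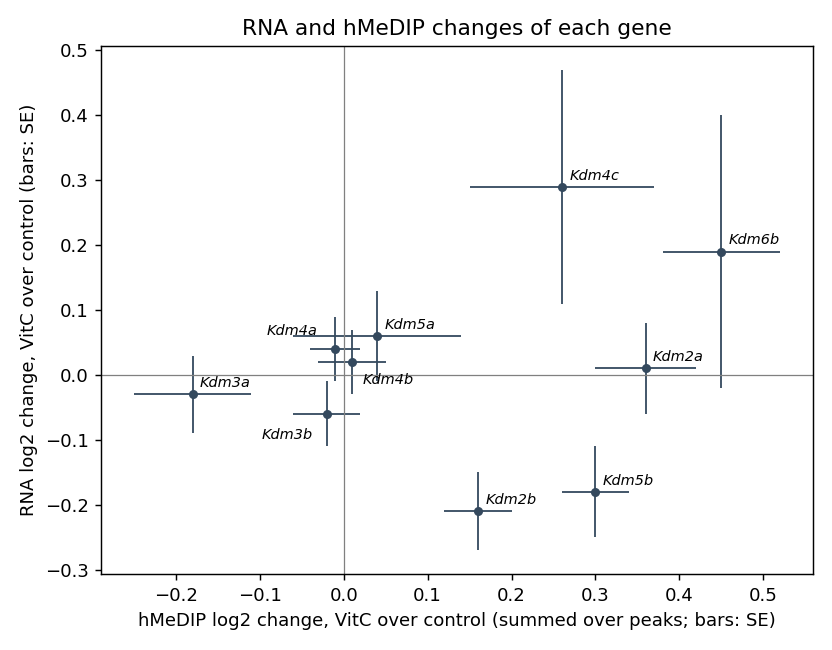
RNA log2 change against the log2 change of hMeDIP reads summed over all peaks, VitC over control, for each of the 10 genes, with bars of 1 SE. Genes with hMeDIP changes above 0.1 lie both above and below 0 in RNA.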

How the data were processed

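Whole-number read counts were deposited by the authors, per gene for 6 RNA libraries and per peak for 6 hMeDIP and 6 input libraries, together with a list of peaks, their positions, genes and features. Tools named in the submitters' processing notes, without role or order, are STAR, BWA, HTSeq, Trim Galore and CASAVA 1.4. The genome build, annotation release, peak caller, rule that joined peaks and strand setting of counting are not stated in any source used here, so overlapping and antisense genes cannot be separated in the counts. The peak list supplied symbols for 17003 of 32883 RNA identifiers.

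Counts of each assay were fitted with edgeR 4.0.16 in R 4.3.3 (glmQLFit and glmQLFTest, TMM factors, filterByExpr, treatment as the only term, Benjamini-Hochberg adjustment over all features at 0.05). The change over input was tested as the assay by treatment interaction, with each sample as a term. A fit on hMeDIP counts summed by gene name gave 1 value per gene. Errors of changes are SE and intervals are 95%. Reads not counted in a single gene or peak were left out of library sizes (42.3% to 53.9% of counted RNA reads). In RNA these were mostly reads aligned at several places (32.7% to 44.9%), with 7.24% to 8.97% in no gene. Scaling RNA by all counted reads therefore takes in reads aligned at several places, whose share differed between libraries. No molecular identifiers are mentioned, so counted reads may not be independent molecules. The hMeDIP libraries 1 and 3 were summed in both groups because their counts agree within sampling noise while other pairs of the group differ. The rule set for this choice asked that other pairs of the group exceed a chi-square of 1.1 per degree of freedom, which the other VitC pairs, at 1.09 and 1.08, do not. Summing the control pair alone was therefore run as an alternative chosen after seeing the data. The fits were also run on simulated data, whose settings and result are not reported here, so no weight is placed on that run. Alternatives were other scaling factors, no filter, DESeq2 1.42.0, the replicate block, each replicate left out, libraries as labelled and scaling by all counted reads. Tables and figures were made with matplotlib 3.10.9, pandas 2.3.3, scipy 1.17.1, numpy 2.4.6, Python 3.11.15, limma 3.58.1 and data.table (1.17.8).

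The members, gene lists and marker lists were chosen with earlier results of these data known. Some markers of the Schwann cell list are not reported here. All members were named. Peaks were named if they were the member's peak of smallest p in hMeDIP or of a promoter class, and other genes if they were among up to 4 called genes of a list with the smallest p.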

Additional observations from a re-analysis of the deposited data

How the results depend on the processing

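Of the 10 members, 1 was called in RNA, lower in VitC. The count was 2 with library sizes alone and 0 without the filter on low counts, with DESeq2 or when scaled by all counted reads. It was 0 to 2 with 1 library left out. Calls over all genes moved too, from 5188 of 12925 to 5442 with library sizes alone and 2754 when scaled by all counted reads. They were 5199 of 20202 without the filter, 4685 of 32883 with DESeq2, and 3494 to 5634 with 1 library left out. Among the member peaks in hMeDIP, 36 were called with DESeq2 (22 higher, against 20.2% of all peaks), and 6 were lower when scaled by all counted reads. Leaving out replicate 1 or 3 of a group gave 52 to 56 called member peaks in hMeDIP, with 151738 to 154734 called over all 215951 peaks. With replicates 1 and 3 counted together, leaving out replicate 2 leaves 1 sample in its group, so counts without it are not given here. For the change over input, scaling by all counted reads gave 53 called member peaks, 50 higher and 3 lower. Over all 215951 peaks this scaling called 62.1%, 46.3% higher and 15.7% lower. Leaving out replicate 1 or 3 of a group gave 6 to 12 lower member peaks, the 6 being without VitC replicate 3. Over all peaks these fits called 50060 to 57857 lower. By gene in hMeDIP, scaling by all counted reads gave 10 called, 10 higher and 0 lower. The count of lower genes was 2 with library sizes alone and 0 with DESeq2, against 6833 and 5206 of all 16140 genes. It was 0 to 1 with replicate 1 or 3 of a group left out, against 5743 to 6005. With each labelled library as a replicate, 58 member peaks were called, and 58 with control libraries alone summed, against 56. Over all peaks these were 162865 and 160540, against 158065.

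Some RNA changes near 0 took the other sign. With library sizes alone these were Kdm2a (-0.05), Kdm4a (-0.02), Kdm4b (-0.04) and Kdm5a (-0.00169). Kdm2a was also -0.01 when scaled by all counted reads. Leaving out 1 library gave ranges of -0.05 to 0.06 for Kdm2a, -0.00298 to 0.07 for Kdm4b and -0.11 to 0.33 for Kdm6b. In hMeDIP, scaling by all counted reads turned Kdm3a (0.24), Kdm3b (0.40), Kdm4a (0.43) and the Kdm6b peak at 1995 bases (0.35). Kdm4b was -0.00105 with DESeq2 size factors, -0.05 with library sizes alone and -0.00418 with DESeq2. Kdm5a was -0.02 with library sizes alone and -0.00903 with DESeq2. Leaving out 1 library gave ranges of -0.03 to 0.01 for Kdm3b, -0.04 to 0.00261 for Kdm4a, -0.01 to 0.03 for Kdm4b and -0.05 to 0.18 for Kdm5a. The cause of these differences was not tested.

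Replicate numbers are not said to pair samples, and same-numbered libraries did not deviate together (correlations of 0.167, 0.0509 and 0.00958 in RNA and -0.0293, -0.20 and -0.11 in hMeDIP). With the replicate block, 1 member was called in RNA, against 5544 of all 12925 genes tested. In hMeDIP 53 member peaks and 4 members were called, with 0 members lower. Over all features these were 151098 of 215951 peaks and 11387 of 16140 genes, with 5739 genes lower. Calls not made with the replicate block were Kdm3a (edgeR adjusted p = 0.0518) and Kdm4c (0.07) by gene and the Kdm5a peak at 78018 bases (0.0818).

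Depth limits narrow peaks: member peaks had 17 to 638 hMeDIP reads and 11 to 109 input reads per library. Groups of 2 hMeDIP samples give the spread little support.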
